A study of Mus musculus with 6 samples.

Results

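The Ifi200 family genes Ifi203, Ifi204, Ifi205, Ifi206, Ifi207, Ifi208, Ifi209, Ifi211, Ifi213 and Mndal were examined in CD45+ cells of B16-F10 tumors, a transplanted mouse melanoma, profiled by single-cell RNA-Seq. The genes were chosen by symbol, and all 10 were found among the 32285 genes of the deposited matrices. Tumors were grown in female C57BL/6 mice of 6 to 10 weeks, and 3 αPD-1 samples were compared with 3 αPD-1 + corin samples. Both arms were treated with 150 μg of antibody to PD-1 from day 7, 3 times each week. Mice of the αPD-1 + corin arm were also given 200 μg of corin, an inhibitor of the CoREST complex, daily from day 6, and vehicle was the control injection. There were 10 mice in an arm, but no label ties a sample to a mouse, so p-values measure the spread between these samples, which may be technical. Cells had been frozen, thawed, freed of dead cells and enriched with CD45 beads.

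The proteins of this family are interferon-inducible. They carry a HIN domain, which binds DNA, and many also have a pyrin domain, through which such proteins assemble with partners. IFI204 is known for a role in sensing foreign DNA upstream of type I interferon, and AIM2, encoded beside the family, forms an inflammasome with ASC and caspase-1 after binding DNA in the cytosol. Family members are best known from macrophages and other myeloid cells, and the mouse genome holds many close copies of them.

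The members lay side by side on chromosome 1 (GRCm39, GENCODE annotation), from the first base of Ifi206 at 173296051 to the last base of Ifi205 at 173859456, a span of 563.4 kb. Ifi209 and Ifi208 were on the plus strand and the other 8 members on the minus strand. Aim2 preceded the span, at 173178445 to 173293930, and Ifi214 and Ifi202b lay within it. All are annotated as protein coding.

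**Figure D1:**
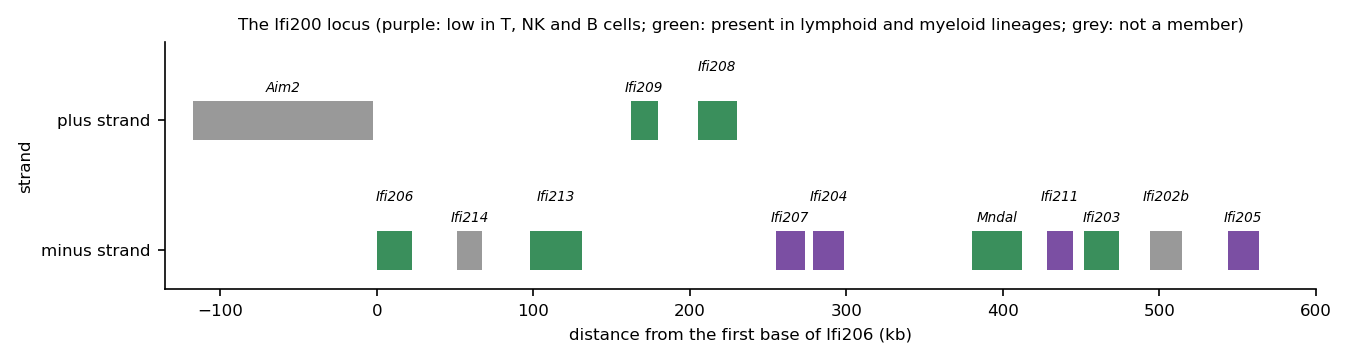
Genes of the Ifi200 locus on chromosome 1, drawn to scale by distance in kb from the first base of Ifi206 and by strand, with members low in T, NK and B cells in purple, the other members in green and non-members in grey. The purple members Ifi207, Ifi204, Ifi211 and Ifi205 are in the right part of the span, with Mndal and Ifi203 (green) among them.

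The stretches of promoter below are shown because they hold the motif of GAAA, any 2 bases and GAAA, the core to which interferon-activated factors bind, and because they show how alike the copies are. Promoter windows of 300 bases (250 before to 50 after a gene's start) were taken from RefSeq (build GRCm38.p6) and existed for 9 members. The motif, searched on both strands, was in at least 1 window of 8 of these 9 members and in 1131 of the 32851 windows of all genes (3.44%). Ifi203 and Mndal had 2 windows each, so the first count is of genes and the second of windows. Ifi209 had no match, and Ifi204 had no window. The motif is in capitals with 20 bases on either side, 5′ to 3′ along each gene's strand.
Mndal (chr1:173880194-173880243): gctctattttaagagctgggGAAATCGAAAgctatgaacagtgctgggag
Ifi203 (chr1:173942498-173942547): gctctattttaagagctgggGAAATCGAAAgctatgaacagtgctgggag
Ifi206 (chr1:173491329-173491378): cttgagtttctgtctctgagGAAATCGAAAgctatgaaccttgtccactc
Ifi208 (chr1:173673587-173673636): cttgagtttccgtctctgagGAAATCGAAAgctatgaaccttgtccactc
Ifi213 (chr1:173599316-173599365): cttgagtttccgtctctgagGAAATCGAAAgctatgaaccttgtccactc
Ifi207 (chr1:173741821-173741870): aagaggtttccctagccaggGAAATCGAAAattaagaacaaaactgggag
Ifi205 (chr1:174031860-174031909): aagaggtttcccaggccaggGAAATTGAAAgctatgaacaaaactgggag
Ifi211 (chr1:173913054-173913103): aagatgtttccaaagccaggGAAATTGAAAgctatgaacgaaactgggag
The 50 bases of Mndal and Ifi203 were identical. Ifi206, Ifi208 and Ifi213 shared 49 or 50 of the 50 bases with each other, and Ifi205, Ifi207 and Ifi211 shared 42 to 46. Between these 3 sets, 24 to 35 bases were identical over 21 pairs. All these counts include the GAAA bases of the motif, which match in every pair because the stretches were chosen and aligned by it. A match describes the letters in this window and is not a measured site.

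Such copies can share reads. Of the 90-base windows in the first 500 bases of the members' transcripts, 52.8% were identical between Ifi204 and Ifi211, 34.18% of those of Ifi208 recurred in Ifi206 or Ifi213, and 24.73% of those of Ifi203 recurred in Mndal. Ifi213 shared 3.26% of its windows, and Ifi205 and Ifi207 shared none. Ifi206 shared 18.09%, with Gm18752, Ifi208 or Ifi213, and Ifi209 shared 10.46% with Ifi214. The split of UMIs between Ifi204 and Ifi211, between Ifi203 and Mndal, or between Ifi208 and Ifi206 is therefore uncertain. That between Ifi209 and Ifi214 is uncertain to a lesser degree.

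For each of 7 lineages, named from marker genes, UMIs were summed by sample and are given as CPM, the gene's UMIs per 1000000 UMIs of that lineage in that sample. Since 1 UMI marks 1 transcript end, CPM was not divided by gene length. The 6 libraries held 52281422 to 84276739 UMIs, and 28865 of 52899 barcodes were kept. Of these cells 21600 were in the 7 lineages. They were 3700 T cells, 435 NK cells, 2669 B cells, 1496 monocytes, 9874 macrophages, 1544 dendritic cells and 1882 melanoma cells. The melanoma cells are those left after the enrichment and the upper limit on genes per cell. Without that limit the αPD-1 samples held 736, 462 and 1130 melanoma cells, against 123, 84 and 166 with it. Their median UMIs per cell were 34313 to 46967 without the limit and 2822 to 5550 with it. Melanoma levels and shares below therefore describe only the cells kept under the limit, which had few UMIs for melanoma cells. The listed markers were highest in their own lineage for 10 of 10 T cell, 9 of 9 NK cell, 8 of 8 B cell, 7 of 8 monocyte, 11 of 11 macrophage, 22 of 25 dendritic cell and 8 of 8 melanoma genes. The lineages were named from these same markers, so the counts describe the naming and do not test it. Libraries shared 10 to 32 barcodes by pair. Cell numbers were far from even, since the αPD-1 samples gave 709 to 1079 B cells and the αPD-1 + corin samples gave 48, 48 and 11.

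By their levels the members formed 2 sets, a split made after the values were seen. Mndal, Ifi203, Ifi209, Ifi213, Ifi206 and Ifi208 were present in lymphoid and myeloid cells alike. Ifi204, Ifi205, Ifi207 and Ifi211 were mainly in monocytes, macrophages and dendritic cells. Melanoma cells had the lowest mean of 7 members, and the sum of all 10 there was 86.5 ± 13.1 CPM (SD, n = 3) in αPD-1 samples against 2605 ± 255 CPM in monocytes of the same samples.

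Mndal, which encodes a nuclear protein related to human MNDA, was the most abundant member in lymphocytes. In B cells it was 555, 618 and 689 CPM in the αPD-1 samples, and in T cells it was 322, 336 and 361 CPM. Monocytes (437, 394 and 356 CPM), NK cells (422, 402 and 315 CPM), T cells and dendritic cells (384, 319 and 284 CPM) formed a run in which neighbours overlapped, below B cells and above macrophages (198, 202 and 218 CPM). Ifi203 kept nearly the same order, with 300.2, 345 and 408 CPM in B cells and 221, 237 and 269.6 CPM in T cells of the αPD-1 samples, and all neighbours from B cells to dendritic cells overlapped.

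Ifi213 and Ifi209 were also high in B cells. Ifi213 was 209.6, 239 and 343 CPM in αPD-1 B cells, above T cells (155, 119 and 145 CPM) and monocytes (113, 151 and 129 CPM), which overlapped each other. Ifi209 was 312, 285 and 272 CPM in monocytes and 228, 242 and 295 CPM in B cells, ranges that overlapped, with dendritic cells next (142, 137 and 121 CPM). Ifi206 and Ifi208 were lower throughout. Ifi206 was 80.1, 78.3 and 86.4 CPM in αPD-1 B cells, and T cells, monocytes, NK cells and macrophages followed with neighbours that overlapped. In the αPD-1 samples Ifi208 separated lymphoid from myeloid cells, at 46.3 to 101 CPM in the T, NK and B cell sums and 13.9 to 26.2 CPM in the monocyte, macrophage and dendritic cell sums. The αPD-1 + corin sums overlapped, with 27.2 CPM in T cells and 15.6 CPM in B cells at the lowest and 37.9 CPM in monocytes at the highest.

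In the second set, Ifi207 reached 656, 648 and 561 CPM in αPD-1 monocytes, 363, 349.6 and 367 CPM in macrophages and 227, 191 and 206 CPM in dendritic cells, and these 3 lineages did not overlap. In T cells it was 5.52, 5.35 and 12.1 CPM. Ifi204, the DNA sensor named above, had the same order, at 401, 398 and 348 CPM in monocytes, 185, 176 and 190 CPM in macrophages and 66.3, 84.9 and 61.4 CPM in dendritic cells. Ifi211 was highest in monocytes as well (211, 204 and 164 CPM), and its dendritic cell and macrophage values overlapped. Over all 6 samples, the highest myeloid mean was 28.6 times the highest lymphoid mean for Ifi204, 36.5 times for Ifi205, 31.0 times for Ifi207 and 8.67 times for Ifi211.

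Ifi205 alone was highest in dendritic cells, with 319.7, 390.2 and 338 CPM in the αPD-1 samples and 383, 292 and 406 CPM in the αPD-1 + corin samples. Within dendritic cells its level followed the subset. Type 1-like dendritic cells, named from markers such as Xcr1 and Clec9a, held 910 ± 130 CPM in αPD-1 and 918 ± 151 CPM in αPD-1 + corin samples (SD, n = 3 each). Type 2-like cells held 333 ± 166 and 223 ± 110 CPM, mature cells 82.2 ± 55.5 and 123 ± 125 CPM, and plasmacytoid-like cells 32.6 ± 9.58 and 15.4 ± 10.9 CPM. Mndal had another order, with 201 ± 84.4 CPM in type 1-like and 421 ± 27.6 CPM in type 2-like cells of the αPD-1 samples.

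Shares of cells with a UMI, taken after thinning every cell to 1000 UMIs, gave the same picture. In the αPD-1 samples Mndal had a UMI in 44.2% ± 4.21 of B cells and 29.1% ± 0.755 of T cells (SD, n = 3), and Ifi207 in 42.4% of monocytes and 30.5% of macrophages. Melanoma cells, taken as a stand-in for background from free RNA that was not measured, stood at 3.26% for Mndal and 0.831% for Ifi207. By mean CPM, though, NK cells were lowest for Ifi205 and Ifi207 and B cells for Ifi211. The T cell shares of Ifi204, Ifi205, Ifi207 and Ifi211 were 0.534%, 0.193%, 0.526% and 0.310%, against 0.282%, 0.282%, 0.831% and 0.419% of melanoma cells. These T cell shares were at or near the melanoma shares and are not read as expression. Without thinning the T cell shares of these 4 were 1.55%, 0.700%, 1.65% and 2.35%, and the melanoma shares 1.49%, 0.472%, 3.00% and 2.54%. The mean share was lower with corin in 52 of the 70 pairs of a member and a lineage, thinned or not, melanoma cells included. Some of these pairs were near 0, such as Ifi205 in NK cells at 0.505% and 0% after thinning. The same count over all genes was not made, so this number is not read as a result about the members.

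**Figure D2:**
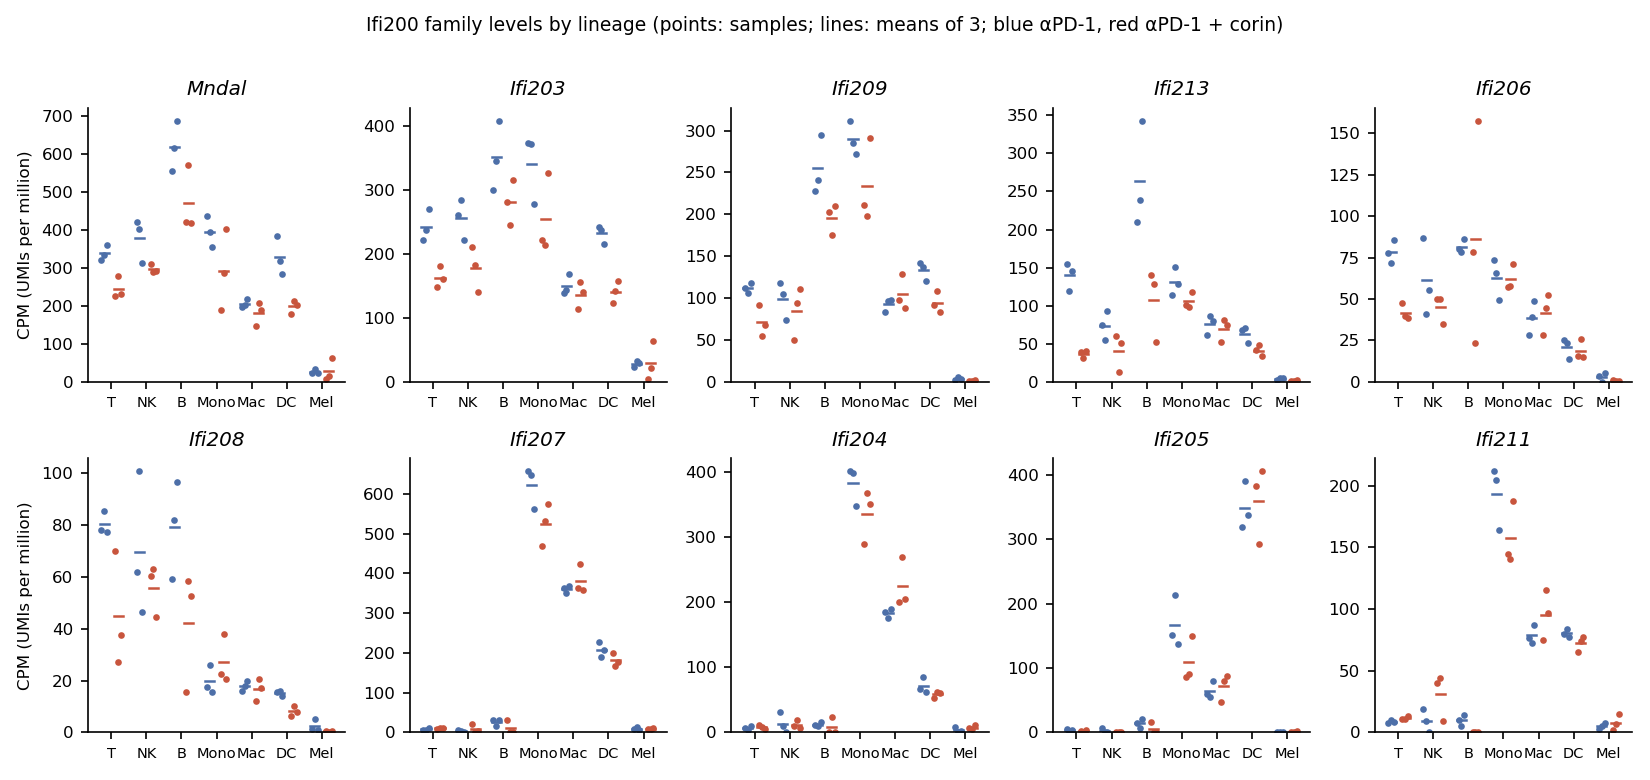
CPM (linear axis from 0, scaled per panel) of each member in the 7 lineages, with 1 point per sample, lines at the means of 3, αPD-1 in blue and αPD-1 + corin in red. Ifi204, Ifi207 and Ifi211 peak in monocytes and Ifi205 in dendritic cells, while Mndal and Ifi203 extend over T, NK and B cells, and melanoma cells are low for all 10.

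Over the 42 sums (7 lineages in 6 samples), the members of each set varied together. Pearson's r of log2(CPM + 1) was 0.782 to 0.979 over the 15 pairs of the first set, 0.782 to 0.904 over the 6 pairs of the second and -0.171 to 0.452 over the 24 pairs of 1 member from each. The sums share libraries and lineages, and the sets were drawn from the same values, so these are descriptions. Of genes outside the family, Csf1r (0.969), the receptor for the macrophage growth factor, Rab7b (0.955) and Tgfbi (0.955) were most like Ifi207. Sp100 (0.976), a nuclear body component, 9930111J21Rik2 (0.946) and Ppp1r15a (0.943) were most like Mndal. Sp100 (0.944), 9930111J21Rik2 (0.913) and Irf1 (0.911), an interferon-responsive transcription factor, were most like Ifi203.

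**Figure D3:**
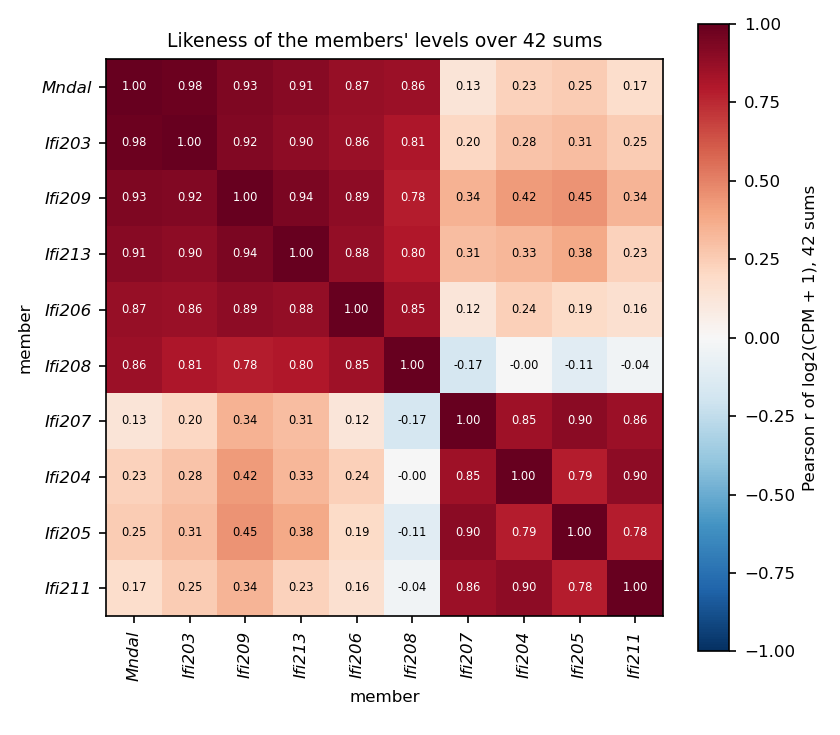
Pearson's r of log2(CPM + 1) between members over 42 sums, coloured by r, members on both axes. A block of 6 members (0.782 to 0.979) and a block of 4 (0.782 to 0.904) stand against pairs across the blocks (-0.171 to 0.452).

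T cells had the most members past the threshold between treatments. Ifi213, Ifi208, Ifi206, Ifi209, Ifi203 and Mndal were lower in αPD-1 + corin T cells, and none of the 9 members tested was higher, against 7.49% of all genes. The test was edgeR's quasi-likelihood test on the 6 T cell sums, with Benjamini-Hochberg adjustment over 9835 genes and an adjusted p threshold of 0.05. Lower calls made up 11.4% of all genes tested. These 6 are the members of the first set, and the 3 tested members that were not called, Ifi204, Ifi207 and Ifi211, were at 13.4 CPM or less in every T cell sum. Ifi205 was too low to be tested.

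Ifi213 had the largest fall. Its T cell level was 155, 119 and 145 CPM in the αPD-1 samples and 39.1, 31.1 and 40.9 CPM in the αPD-1 + corin samples. The groups were far apart, with the lowest αPD-1 sample well above the highest αPD-1 + corin sample. It was 3.49-fold lower (log2 change -1.80 ± 0.16 SE, edgeR adjusted p = 1.47e-05), and it passed the threshold under each of the 16 alternatives run, with log2 changes between -2.37 and -1.0. At 1000 UMIs per cell, 15.9% ± 2.27 of αPD-1 T cells and 5.39% ± 0.166 of αPD-1 + corin T cells had an Ifi213 UMI (SD, n = 3). In melanoma cells, the comparison for these shares, it was 0.904% ± 0.307 and 0.333% ± 0.019. Without thinning the T cell shares were 30.1% ± 0.789 and 11.2% ± 3.15, at medians of 1690 to 3094 UMIs per T cell, and the melanoma shares were 1.94% and 0.611%, at medians of 2822 to 5550.

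Ifi208 was 78.2, 85.2 and 77.1 CPM in the αPD-1 T cell sums and 69.8, 27.2 and 37.7 CPM in the αPD-1 + corin sums, where replicate 1 stood near the αPD-1 values. It was 1.99-fold lower (log2 -0.99 ± 0.21, edgeR adjusted p = 0.00551). Ifi206, whose promoter stretch differs little from that of Ifi208, was 77.8, 71.9 and 85.4 against 47.5, 39.6 and 38.4 CPM, and was 1.85-fold lower (log2 -0.89 ± 0.14, edgeR adjusted p = 0.00106). Neither gene's groups overlapped. Samples not overlapping and lower with corin made up 21.4% of the genes tested.

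Ifi209 was 112, 106 and 119 CPM in the αPD-1 T cells and 92.1, 55.2 and 68.0 CPM in the αPD-1 + corin T cells. It was 1.58-fold lower (log2 -0.66 ± 0.16, edgeR adjusted p = 0.0104). The Ifi209 call was lost in 4 of the 16 alternatives, among them without αPD-1 + corin replicate 2 (edgeR adjusted p = 0.0582) and without naive-like T cells. Ifi203, at 221, 237 and 269.6 against 148, 180.3 and 160.2 CPM, was 1.40-fold lower (log2 -0.49 ± 0.13, edgeR adjusted p = 0.0178). Its call was lost without αPD-1 replicate 3 (adjusted p = 0.0701) and without αPD-1 + corin replicate 3 (adjusted p = 0.0686). Mndal, at 322, 336 and 361 against 226, 280 and 232 CPM, had the smallest fall, 1.31-fold (log2 -0.39 ± 0.13, edgeR adjusted p = 0.0431). The Mndal call was lost in 12 of the 16 alternatives, when any 1 sample was left out (adjusted p 0.0514 to 0.158) and with all 6 samples under DESeq2 (0.0575), the replicate block (0.0585), LogNormalize clustering (0.0528), no filter on low counts (0.0918), no upper limit on genes per cell (0.121) and without naive-like T cells.

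The 3 tested members of the second set had log2 changes above 0 in T cells that did not pass the test. Ifi207 was at 0.66 (edgeR adjusted p = 0.212), Ifi211 at 0.59 (adjusted p = 0.166) and Ifi204 at 0.34 (adjusted p = 0.646). The sum of all 10 members was 1019 ± 62.7 CPM in αPD-1 T cells and 637 ± 23.8 CPM in αPD-1 + corin T cells (SD, n = 3).

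**Figure D4:**
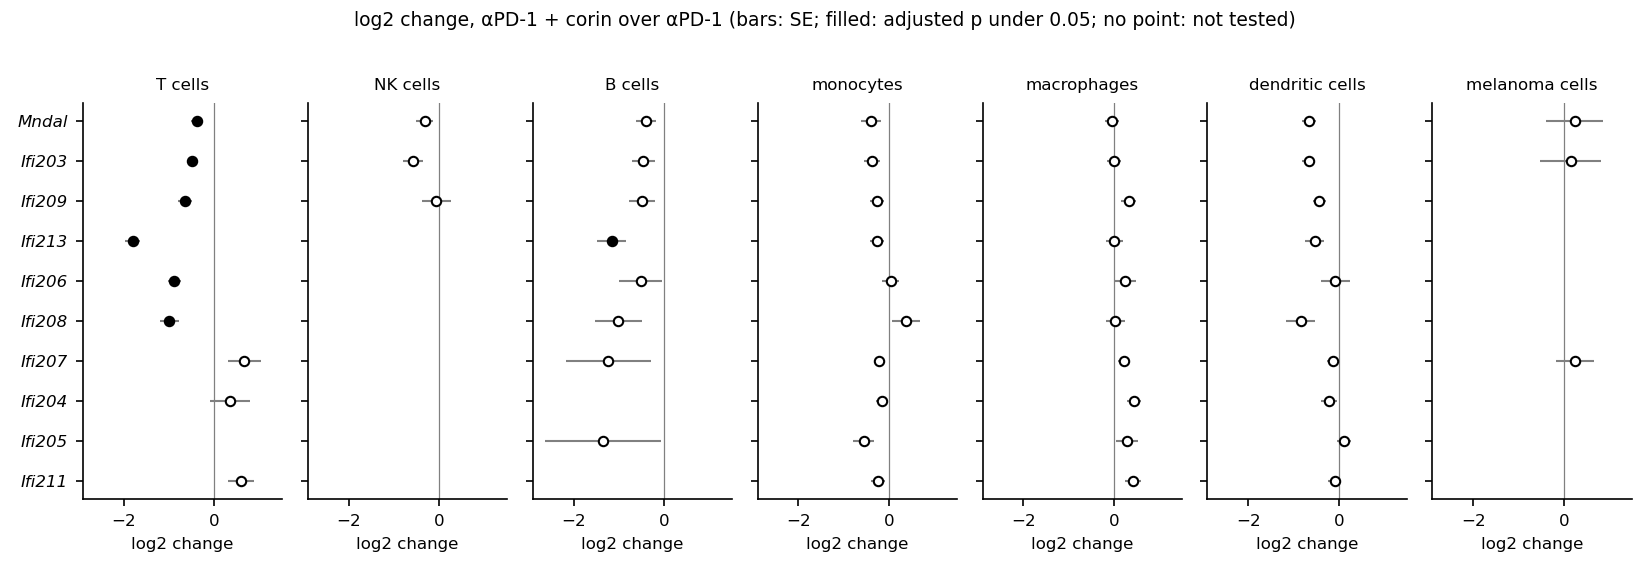
log2 change of each member, αPD-1 + corin over αPD-1, by lineage, with bars for the SE, filled points for an adjusted p under 0.05 and no point where a gene was too low to be tested. Filled points are 6 members in T cells and Ifi213 in B cells, all below 0.

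The make-up of the T cells differed between the arms. Naive-like T cells, named from markers that include Lef1, Ccr7 and Tcf7, made up 48.1% to 58.7% of αPD-1 T cells and 1.51% to 5.23% of αPD-1 + corin T cells. Cytotoxic-like T cells were 8.42% to 15.5% and 19.6% to 49.5%, and cycling T cells 7.63% to 8.31% and 16.3% to 18.0%. Naive-like T cells also had the highest Ifi213 level, at 249 ± 26.0 CPM in αPD-1 samples, against 125 ± 12.8 CPM in regulatory-like, 59.4 ± 10.9 CPM in cytotoxic-like and 42.1 ± 10.9 CPM in cycling cells of the same samples.

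With the naive-like T cells left out, 1 of the 9 tested members was called lower, Ifi213, in a fit where 0.369% of genes were. It was 2.01-fold lower (log2 -1.0 ± 0.18, edgeR adjusted p = 0.0253). Ifi203, Ifi206, Ifi208, Ifi209 and Mndal then had log2 changes of -0.47 to -0.31 and adjusted p-values of 0.332 to 0.613 and were not called. All 6 remained below 0.

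Ifi213 was lower in each of the 5 T cell subsets, with no overlap between the samples of the arms. In regulatory-like T cells it was 137, 112 and 125 CPM in αPD-1 and 50.3, 31.9 and 72.9 CPM in αPD-1 + corin samples. In cytotoxic-like T cells it was 62.9, 47.1 and 68.1 against 42.4, 39.6 and 37.0 CPM, and in cycling T cells 47.2, 29.5 and 49.5 against 0, 9.13 and 22.1 CPM. The ranges nearly met in cytotoxic-like cells. T cells of no subclass held 122, 124 and 115 against 73.2, 56.1 and 88.9 CPM. Naive-like T cells held 255, 220.3 and 271 against 188, 111 and 103 CPM, the latter from only 8, 13 and 17 cells with 2, 3 and 3 Ifi213 UMIs. Genes with 10 or more UMIs whose samples were lower without overlap made up 33.8% in naive-like, 6.08% in cytotoxic-like, 8.15% in regulatory-like, 7.56% in cycling and 12.7% in the other T cells. Of the other members called in all T cells, Ifi203 was lower without overlap in 4 subsets, Mndal in 3, Ifi206 in 2, Ifi209 in 1 and Ifi208 in none, and none was higher without overlap. Ifi204, Ifi205, Ifi207 and Ifi211 held 2 to 56 UMIs per subset over the 6 samples. Their few separations went both ways, with Ifi207 lower in 2 subsets and higher in 1 and Ifi211 lower in 1 and higher in 1, and are too thinly counted to be read.

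**Figure D5:**
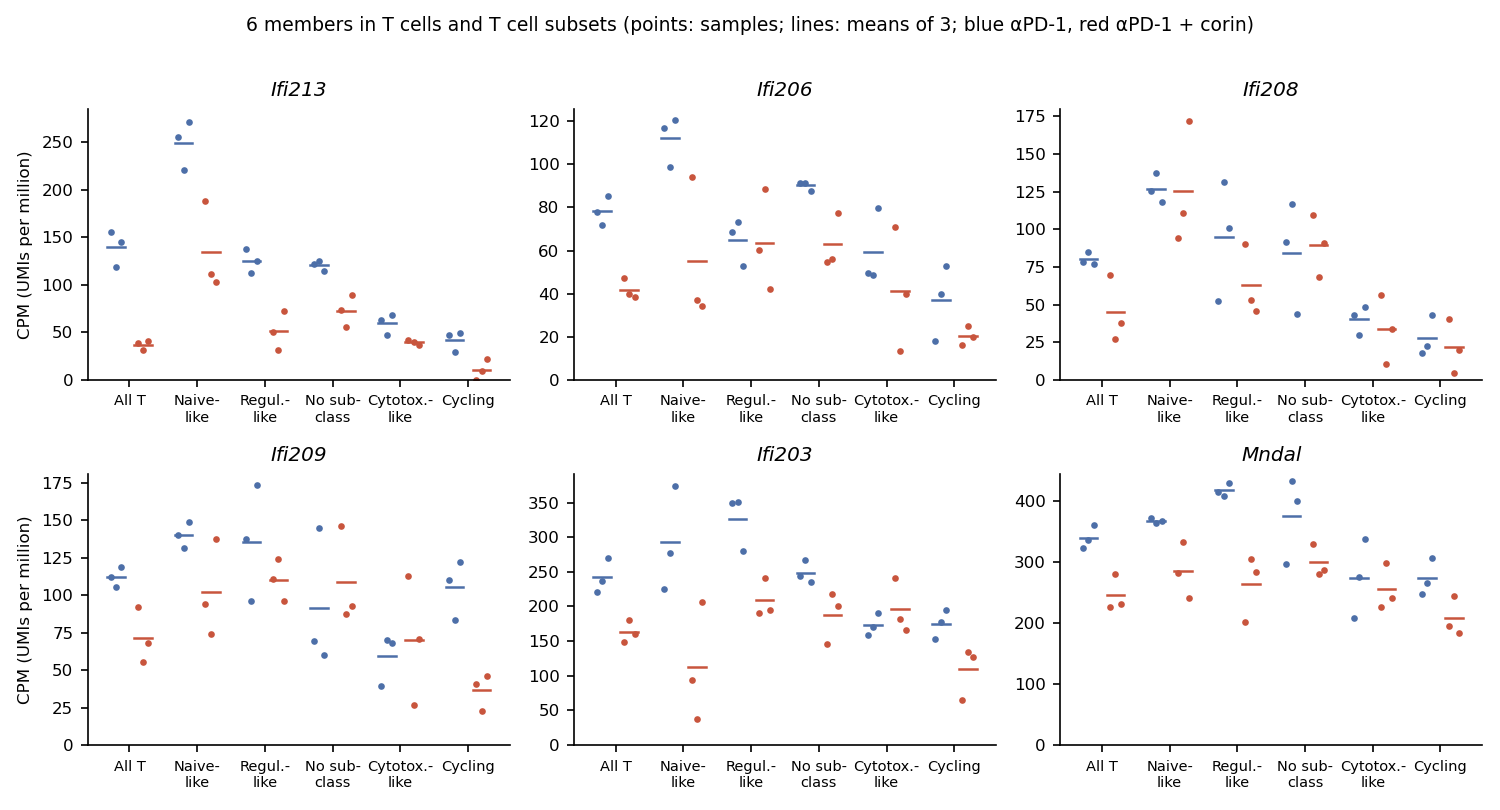
CPM (linear axis from 0, scaled per panel) of the 6 members called in T cells, in all T cells and in the T cell subsets, with 1 point per sample, lines at the means of 3, αPD-1 in blue and αPD-1 + corin in red. Ifi213 is highest in naive-like cells and its red points lie below its blue points in every subset, whereas the colours mix for Ifi208 in each subset.

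Marker lists of other cell types also moved with the T cell groups. These lists are not free of T cell genes, since Prf1 of the NK list is also a cytotoxic-like T cell marker here. How much of each sum came from the T cells themselves was not tested. The 8 B cell markers summed to 127 to 234 CPM in αPD-1 T cells and 9.8 to 19.5 CPM in αPD-1 + corin T cells, the 8 monocyte markers to 728 to 792 and 1128 to 1228 CPM, and the 9 NK markers to 389 to 540 and 681 to 843 CPM, while the 10 T cell markers stood at 4188 to 4208 and 4125 to 4600 CPM. With cells holding 2 or more UMIs of another lineage's markers left out, Ifi213 was again lower (log2 -2.37, edgeR adjusted p = 4.33e-08). That filter kept 398, 351 and 312 of 760, 794 and 582 αPD-1 T cells. It kept 65, 87 and 297 of 153, 283 and 1128 αPD-1 + corin T cells. The make-up of the T cells kept was not examined, so this value cannot separate foreign RNA from make-up.

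In B cells, Ifi213 was the only member called. It was 209.6, 239 and 343 CPM in the αPD-1 samples and 141, 128 and 52.5 CPM with corin added, ranges that did not overlap, and was 2.23-fold lower (log2 -1.16 ± 0.32, edgeR adjusted p = 0.0214) where 1.6% of 8006 genes were called lower. All 8 members tested had log2 changes below 0, with a median of -0.76 where the median of all genes was -0.19 (7 of 8 were lower by the mean CPM), and the other 7 had adjusted p-values of 0.365 or more. The call did not survive leaving out any 1 sample (adjusted p 0.0688 to 0.177), DESeq2 (0.0567) or the settings that kept more barcodes, and it rests on 107 αPD-1 + corin B cells. Mndal was 555, 618 and 689 against 422, 571 and 420 CPM, ranges that overlapped. Ifi211 had no UMI in any αPD-1 + corin B cell sum, where αPD-1 sums held 5.46 to 14.0 CPM, but 3 UMIs over that arm are 17.8 CPM, so a difference was not detectable at this depth.

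No member passed the test in dendritic cells, where 0.191% of 8397 genes were called, yet several separated by sample. Mndal was 384, 319 and 284 CPM in αPD-1 and 179.9, 213 and 204 CPM in αPD-1 + corin dendritic cells (log2 -0.66 ± 0.15, edgeR adjusted p = 0.140). Ifi203 was 242, 238 and 216 against 122, 141 and 157 CPM (log2 -0.67 ± 0.14, edgeR adjusted p = 0.105). In all, 6 of the 10 tested members were lower in every αPD-1 + corin sample than in any αPD-1 sample, against 9.98% of the genes tested, and 5 had an unadjusted p under 0.05. The make-up of the dendritic cells differed too. Type 2-like cells were 9.42% to 11.7% of them in αPD-1 and 12.3% to 37.1% in αPD-1 + corin samples, and cells of no subclass, where Mndal (488 ± 119 CPM, SD, n = 3) and Ifi203 (412 ± 33.5 CPM) were highest in αPD-1 samples, 18.1% to 25.7% and 3.87% to 18.0%. Within plasmacytoid-like cells both genes separated by sample, Mndal at 428, 359.95 and 330.1 against 249, 228 and 229 CPM. The share of all genes that separated within dendritic subsets was not counted, so separations there only describe the values. Mndal overlapped in type 1-like cells, mature cells and cells of no subclass, and Ifi203 in type 2-like and mature cells. Ifi205, the dendritic cell member, was at log2 0.11 ± 0.15 (edgeR adjusted p = 0.912). Without αPD-1 + corin replicate 3, 1 member was called, with the share of all genes called in that fit not given here. The 8 B cell markers summed to 286 to 387 CPM in αPD-1 and 30.0 to 84.1 CPM in αPD-1 + corin dendritic cells, and their part in these values was not tested.

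Monocytes, macrophages, NK cells and melanoma cells had no member past the threshold with edgeR or with DESeq2, nor had dendritic cells with DESeq2. In monocytes, where 1.31% of genes were called, 8 of 10 members had log2 changes below 0, from -0.56 for Ifi205 (adjusted p = 0.230) upward, and Ifi205 was the only member with an unadjusted p under 0.05. Ifi207 was 656, 648 and 561 against 469, 532 and 573 CPM there, which overlapped. Without αPD-1 + corin replicate 3, 3 members were called in monocytes and 1 in macrophages. The share of all genes called in those fits is not given here, so these counts are not read as results about the members. In macrophages, where 0.197% of genes were called, 9 of 10 members had log2 changes above 0, and 2 had an unadjusted p under 0.05. That direction depended on the scaling, since 6 of 10 were higher by the mean CPM, which has no normalization factor, and 3 of 10 by the share of cells with a UMI at 1000 UMIs per cell. Ifi204 was 185, 176 and 190 against 201, 269 and 204 CPM in macrophages, without overlap (log2 0.44 ± 0.15, edgeR adjusted p = 0.208), and samples higher without overlap made up 4.2% of genes there. NK cells allowed 3 members to be tested, with 0.903% of genes called. Ifi203, at 260.3, 284 and 222 against 211, 182 and 139.6 CPM, had a log2 change of -0.58 ± 0.22 (edgeR adjusted p = 0.269), and was the 1 member with an unadjusted p under 0.05. In melanoma cells 0% of genes were called, and the 3 members tested had adjusted p-values of 0.917 to 0.980, with none at an unadjusted p under 0.05.

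Whether a member changed unequally between lineages was tested in 1 joint fit of the 42 sums with terms for sample, lineage and lineage by treatment. Ifi213 passed (edgeR F test, adjusted p = 0.000664), where 3.1% of 12100 genes did. Its log2 changes ran from -1.80 in T cells and -1.16 in B cells to -0.54 in dendritic cells, -0.27 in monocytes and 0.01 in macrophages. Ifi206 (adjusted p = 0.0517), Ifi209 (0.0669) and Ifi208 (0.0727) were just above the threshold, and the other 6 members were between 0.307 and 0.674. When the naive-like T cells were left out of the joint fit, an alternative added after the data were seen, Ifi213 was at an adjusted p of 0.132.

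Other genes of the pathway were read from fixed lists. Of 28 DNA sensing genes, 23 were tested in T cells, and 1 was higher and 2 lower. Of all genes tested there, 7.49% were higher and 11.4% lower, so these counts are not read as a result about the list. Il1b, the inflammasome's cytokine product, was 5.06, 4.01 and 3.82 against 30.7, 28.8 and 11.5 CPM (log2 2.23 ± 0.41, edgeR adjusted p = 0.00217). Monocytes held 306 to 782 CPM of Il1b, more than in any T cell sum, and the monocyte markers were also higher in the αPD-1 + corin T cell sums, as given above; their part in the Il1b value was not tested. The kinase gene Ikbke (log2 -1.29, adjusted p = 0.00139) and the transcription factor gene Irf7 (log2 -0.74, adjusted p = 0.00367) were lower. Cgas, which encodes the enzyme that makes cyclic GMP-AMP on DNA, was at log2 0.39 (adjusted p = 0.283). Without naive-like T cells, 0 of the 23 DNA sensing genes passed with edgeR, with 4 at an unadjusted p under 0.05.

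Many interferon-stimulated genes were lower in T cells, 18 of 44 tested, with 1 higher, where 11.4% of all genes were lower and 7.49% higher. Their median log2 change was -0.41 where all genes had 0.01. Slfn5 was 58.4, 49.1 and 43.3 against 25.1, 21.0 and 13.4 CPM (log2 -1.51 ± 0.22, edgeR adjusted p = 0.000481), and Oasl2, of the oligoadenylate synthetase family, was 25.8, 24.7 and 28.7 against 14.0, 14.8 and 5.11 CPM (log2 -1.55 ± 0.32, edgeR adjusted p = 0.00490). Gbp3, a guanylate-binding protein gene, was the 1 that rose (34.0 to 49.2 CPM in the mean, log2 0.62 ± 0.17, edgeR adjusted p = 0.0206). Without naive-like T cells, 0 of 43 tested genes of this list passed with edgeR, with 17 at an unadjusted p under 0.05, 37 below 0 and a median of -0.28. Of 6 interferon receptor and Jak genes, Ifngr1 was higher (log2 0.60, edgeR adjusted p = 0.00810) and Jak1 (log2 -0.46, adjusted p = 0.0226) and Ifngr2 (log2 -2.96, adjusted p = 8.10e-05) were lower in all T cells. The shares of all genes there were 7.49% higher and 11.4% lower. Without naive-like T cells, 0 of the 5 tested genes of this list passed with edgeR, with 1 at an unadjusted p under 0.05.

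In B cells 8 of 44 interferon-stimulated genes were lower and none higher, where 1.6% of all genes were lower. Of the 10 genes called there from this list and the DNA sensing list, DESeq2 called 1, the replicate block 4, the fit without doublet removal 4 and the fits with 1 sample left out 1 to 3. Igtp and Usp18 were at 39.4 to 45.3 and 24.9 to 53.6 CPM in the αPD-1 samples and had no UMI in αPD-1 + corin B cells, so they were at least 2.43-fold and 2.27-fold lower against 3 UMIs over that arm (17.8 CPM). Of the DNA sensing genes in B cells, Il1b was higher (log2 2.14, edgeR adjusted p = 0.000273) and Zbp1, a sensor of Z-form nucleic acid, lower (log2 -2.01, adjusted p = 0.0175). Neither met the rule by which list genes were named, and both calls rest on 107 αPD-1 + corin B cells. Monocytes held 306 to 782 CPM of Il1b, and the part of monocyte RNA in the B cell value was not tested. In monocytes, Nlrp3, the inflammasome sensor gene, was 102, 104 and 117 against 229.7, 207 and 179.6 CPM (log2 0.96 ± 0.15, edgeR adjusted p = 0.00834), and Il1b was 388, 306 and 364 against 540.0, 782 and 612 CPM (log2 0.89 ± 0.15, edgeR adjusted p = 0.0172). The other lineages had no gene of these lists past the threshold with edgeR, with 4 DNA sensing and 5 interferon-stimulated genes at an unadjusted p under 0.05 in macrophages, 5 and 8 in dendritic cells, 0 and 2 in NK cells and 1 and 2 in melanoma cells.

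The neighbours in the locus differed from each other. Ifi214 was 32.0 ± 1.51 CPM in αPD-1 and 19.5 ± 5.64 CPM in αPD-1 + corin T cells (SD, n = 3) and was called lower (log2 -0.87, edgeR adjusted p = 0.0120), a call lost without naive-like T cells, where neither tested neighbour passed with edgeR and 0 had an unadjusted p under 0.05. Aim2, at 83.0 ± 6.96 and 90.9 ± 8.83 CPM, was not (log2 0.17, adjusted p = 0.395). Ifi202b had no UMI in T cells of any sample, and its highest lineage mean was 0.658 CPM.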

How the data were processed

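Single-cell RNA-Seq (10x Chromium, 5′) of CD45+ cells gave 3 αPD-1 and 3 αPD-1 + corin samples. The authors ran Cell Ranger 8.0, and the deposited values are raw UMI counts per gene and barcode, without normalization. The labels name GRCm39, but some symbols in the gene list are older, and the annotation release is not given in the sources used here; 31674 of 32285 identifiers matched GENCODE vM39.

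A cell needed 600 to 4000 genes and no more than 10% of mitochondrial UMIs. The automatic Scrublet threshold marked 0 barcodes, so the top scores were removed (0.4% per 1000 barcodes, 2002 in all). Cells were clustered with SCTransform (Seurat 5.3.0; 3000 variable genes, 20 components, resolution 0.8) and named where at least 3 markers were 3-fold over other clusters; clusters with markers of more than 1 family (mixed) and other types, 7265 cells, were left out. T and dendritic cells were clustered again.

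UMI counts were summed per sample and lineage (at least 10 cells) and tested with edgeR 4.0.16 (TMM, filterByExpr, quasi-likelihood test, adjusted p threshold 0.05); the script was tested on simulated data. Alternatives were DESeq2 1.42.0, RLE factors, no filter, a replicate block, LogNormalize, other cell filters, limma-voom (limma 3.58.1), no naive-like T or mature dendritic cells, other lineages, and samples left out. The 10 members and the gene lists were chosen with earlier results of these data known. All members were named, with up to 2 list genes each way per lineage (largest change past the threshold, no overlap, 20 CPM or more) and the 3 genes most like each of the 3 members with most UMIs (mean of 10 CPM or more). Il1b in B cells, Zbp1, Ikbke, Irf7, Cgas and the receptor genes were named after their values were seen. Deviations of same-numbered samples from their group means correlated at -0.2 to 0.087, so numbers did not pair samples. Sums held 19065 (B cells, αPD-1 + corin replicate 3) UMIs or more.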

Additional observations from a re-analysis of the deposited data

Results flagged for a closer look

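Ifi213 was picked out because its change with corin differed between lineages in the joint fit of all lineages (edgeR F test, adjusted p = 0.000664). It was lowest in T cells (log2 -1.80 ± 0.16 SE) and near 0 in macrophages (0.01 ± 0.20). Over the other settings of that fit it remained past the threshold, with adjusted p-values up to 0.0283 (limma-voom). The exception was the fit without naive-like T cells, where it was at an adjusted p of 0.132.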

How the results depend on the processing

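Across the alternatives 178 counts were scored as kept and 50 as moved. Kept meant within 1.5 times of the report's count, or 0 where the report's count was 0. The 178 therefore include counts of 0 against 0. Of the calls of single members (6 in T cells and Ifi213 in B cells), 32 were lost under an alternative, 12 of them for Mndal in T cells and 10 for Ifi213 in B cells, and none of these changes reversed; directions of other members were not followed across all alternatives. In T cells 3 members were called when cells of over 4000 genes were kept (no upper limit), 1 without naive-like T cells and 4 to 5 with a sample left out (6 in the report). In B cells 0 were called with DESeq2, the replicate block, no upper limit, no doublet removal or a sample left out, and no fit was possible with cells holding other markers left out, which also moved Mndal to 378 CPM there. In other lineages, where 0 were called, no filter on low counts gave 1 in monocytes and 2 in dendritic cells, and leaving out a sample gave 0 to 3 in monocytes, 0 to 1 in macrophages and 0 to 1 in dendritic cells, the highest without αPD-1 + corin replicate 3. The joint fit called 4 members with no filter, 1 to 3 with a sample left out and 0 without naive-like T cells. Apart from the T cell fit without naive-like cells, shares of all genes called under these alternatives are not given. The counts therefore show only how far the member calls moved.

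For the DNA sensing and interferon genes, T cells gave 10 with no upper limit, 0 without naive-like T cells and 17 to 23 with a sample left out (22 in the report). B cells gave 1 with DESeq2, 4 with the replicate block, 4 with no doublet removal and 1 to 3 with a sample left out (10 in the report). Monocytes gave 8 with no filter, 1 each with the block, LogNormalize and other-marker cells left out, 0 with no doublet removal and 0 to 11 with a sample left out (2 in the report). Macrophages gave 2 with DESeq2, 4 with no filter and 0 to 10 with a sample left out, dendritic cells 3 and 0 to 1, NK cells 0 to 1 with a sample left out, and melanoma cells 1 with DESeq2 and 5 with no filter. The causes were not tested. Leaving out clusters with much Malat1 for their Actb, and the joint fit without naive-like T cells, were alternatives chosen after seeing the data.

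The replicate block called 5 members in T cells and 0 in B cells; the samples share only a number. The 11 to 48 B cells per αPD-1 + corin sample limit what could be detected.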

Other observations

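Cells outside the 7 lineages also held member UMIs, given here over all samples together, with no test. In 992 fibroblast-like cells, Ifi205 was the most abundant member at 316 CPM, near its level in dendritic cells, while Ifi213 was at 3.8 CPM and Ifi206 at 3.4 CPM. Ifi204 and Ifi207 were at 112 CPM each in these cells. In 597 neutrophil-like cells, Ifi204 led at 251 CPM, followed by Ifi207 at 196 CPM, and Mndal was at 73.2 CPM. Endothelial-like cells (165) held 195 CPM of Mndal and 154 CPM of Ifi203. In 287 plasma-like cells Ifi213 was at 28.9 CPM and Mndal at 113 CPM, below their levels in B cells.

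In melanoma cells, Mndal was 24.0, 34.6 and 22.5 CPM in the αPD-1 samples and 7.60, 16.5 and 64.1 CPM in the αPD-1 + corin samples, and Ifi203 was 4.71, 21.6 and 63.1 CPM in the latter. The αPD-1 + corin replicate 3 was the highest of the 6 samples for both.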
